A study of Mus musculus with 6 samples.

Results

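This report covers the genes whose mRNA was lower, or higher, by more than 2-fold in NFIB knockdown cells than in control cells both before osteogenic differentiation and after 7 days of it. Of 55401 genes in the count table, 15516 had 20 or more counts in at least 1 of the 4 libraries compared. Among these, 796 genes differed by more than 2-fold in the same direction at both days, with a 95% counting interval that excluded equality at each day. In shNFIB cells 460 of them were lower and 336 were higher. The members were picked by their measured fold changes, so their own fold changes are a description and carry no test.

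The cells were C3H10T1/2, a mouse embryo-derived mesenchymal stem cell line that can be driven towards bone, fat, cartilage or muscle in culture. The shControl cells carried a control short hairpin RNA and the shNFIB cells a hairpin against Nfib. Each line was sampled at day 0, as untreated confluent cells, and at day 7 in osteogenic medium with β-glycerophosphate, ascorbic acid 2-phosphate and dexamethasone. The series also holds shMLL1 cells, with a hairpin against Kmt2a, at the same days. The labels give wild type for the shControl line and a knockdown for the others. Each line and day is 1 library, so the 2 days stand in for the 2 libraries a side. The spread behind the test is therefore how much the knockdown difference varied between the days, for each gene and pooled over genes. It says nothing of other cultures, of other hairpins or of another derivation of the line. The hairpin against Nfib is aimed at the 3′ end of its transcripts, which the known isoforms share.

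NFIB belongs to the nuclear factor I family, a group of 4 transcription factors (NFIA, NFIB, NFIC and NFIX) that bind DNA as dimers at the palindrome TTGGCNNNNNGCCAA, and more weakly at one arm of it. NFI proteins are known from lung, brain and muscle development, from hair follicle stem cells and from fat cell differentiation.

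Total counts were between 29086652 and 34774066 in the 4 libraries, so that 20 counts correspond to less than 1 CPM, a count scaled to the depth of its library. The hairpin target was reduced in both shNFIB libraries. Nfib (chr4:82290173-82705750, GRCm38) had 3715 and 2546 counts in the shControl libraries of day 0 and day 7, against 1115 and 241 in shNFIB. Both knockdown libraries lay below both control libraries. Below, paired values are given in that order, day 0 first. The log2 fold change was -1.81 at day 0 (95% counting interval -1.91 to -1.71) and -3.34 at day 7 (-3.54 to -3.15). Over both days Nfib fell by 2.56 on the log2 scale (SE 0.36, edgeR quasi-likelihood adjusted p = 0.0117). The other family members did not pass the test: the log2 fold changes at day 0 and day 7 were -0.92 and -0.68 for Nfic, 0.41 and 0.82 for Nfia, and 0.09 and 0.02 for Nfix. Kmt2a, the target of the other hairpin, had 2387 and 2022 counts in shControl and 2731 and 2780 in shNFIB. All 13 mesenchymal markers examined had counts, including Vim, Col1a2, Prrx1 and Pdgfrb, although Nt5e had at most 5 counts in any of the 4 libraries. Their summed level ranged from 9605 to 22294 CPM. Thy1, a mesenchymal surface marker, was the only one of the 13 among the members and was higher in shNFIB, with 2176 and 851 counts in shControl and 9406 and 5023 in shNFIB at days 0 and 7. The summed levels of 8 markers each were 0.196 to 9.41 CPM for epithelium, 1.49 to 7.67 for blood and 3.40 to 26.5 for endothelium. Of these, 6, 6 and 3 markers, Epcam, Ptprc, Kdr and Cldn5 among them, had at most 3 counts in every library. Neural markers summed to 45.8 to 193 CPM, mostly from Map2, with Sox2 and Sox10 at 0 in all 4 libraries. Of these 8 genes, Map2 was a higher member with 2579 and 1159 counts in shControl and 5465 and 2575 in shNFIB. The part of other cell types in the results was not tested. In bulk libraries, fewer cells of a type and less RNA per cell cannot be told apart.

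At day 0, 888 genes were lower by more than 2-fold with an interval that excluded equality (5.72% of the genes tested) and 764 were higher (4.92%). At day 7 these numbers were 1592 (10.3%) and 1145 (7.38%). Both conditions held in 1 direction for the 460 lower genes (2.96% of those tested) and the 336 higher genes (2.17%). The edgeR quasi-likelihood test over both days, with day as a covariate, called 343 genes lower (2.21%) and 293 higher (1.89%) at an adjusted p under 0.05. Of the 796 members, 278 of the lower and 210 of the higher genes were among these calls. Since membership and the test rest on the same 4 libraries, this overlap is not independent evidence for the members. Another 148 called genes were not members, because at least 1 day did not meet the rule.

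**Figure D1:**
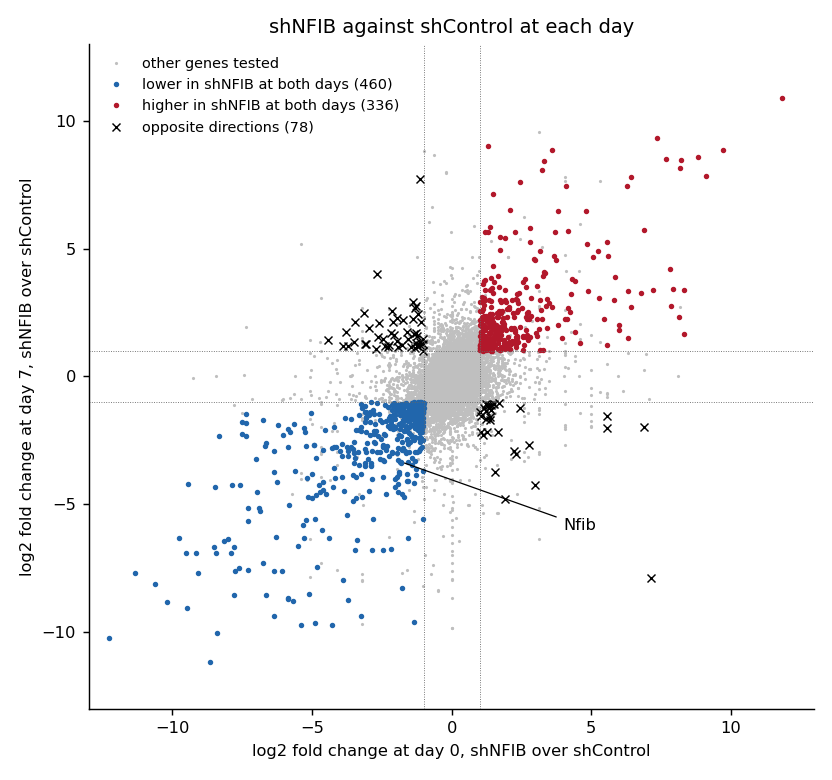
Log2 fold change of shNFIB over shControl at day 0 (horizontal) and at day 7 (vertical) for the 15516 genes tested, 1 library per line and day. The 460 lower members (blue) lie in the lower left corner with Nfib among them, the 336 higher members (red) in the upper right, and 78 genes over 2-fold in opposite directions are marked by crosses; dotted lines mark 2-fold.

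The size of the difference varied widely between members. The median log2 fold change of the lower genes was -1.93 at day 0 and -2.03 at day 7, and that of the higher genes was 1.69 and 2.02, while the median over all genes tested was -0.0023 and 0.023. With libraries at 0 counts set to a floor of 3 counts, the 4 medians of the members were -1.86, -1.99, 1.67 and 1.99. The difference exceeded 4-fold at both days in 169 lower and 92 higher genes, and 16-fold in 62 and 20. The log2 fold changes of the days lay within 0.5 of each other in 332 of the 796 members and within 1 in 507. Protein-coding genes made up 86.7% of the lower and 80.7% of the higher genes, compared with 81.4% of all genes tested. The others include 44 lincRNAs, 18 antisense RNAs and 33 pseudogenes of various kinds. The annotation release and strand setting of the authors' counting are not given in the sources used here. For the 249 members that overlap a gene with counts on the opposite strand, and the 106 that overlap one on the same strand, the reads of the partners may not be told apart.

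The members with the largest difference at both days were genes at or near 0 counts in 1 of the lines. Negr1 (chr3:156561794-157316445), a GPI-anchored cell adhesion protein of neurons, had 597 and 154 counts in shControl at days 0 and 7 and 0 in both shNFIB libraries. Against a floor of 3 counts per library it was at least 209-fold lower at day 0 and at least 49.3-fold lower at day 7. Col9a1 (chr1:24177610-24252684), a chain of the cartilage collagen IX, had 142 and 58 counts in shControl and 0 in both shNFIB libraries, at least 49.8-fold and 18.6-fold lower. Erg (chr16:95359169-95586593), a transcription factor of the ETS family, had 193 and 35 counts in shControl and 0 in shNFIB, at least 67.6-fold and 11.2-fold lower. In each of these genes both control libraries had reads and both knockdown libraries had none.

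Gas6 had the smallest p of all members. Gas6 (chr8:13465374-13494490) encodes a secreted ligand of the receptor kinases Tyro3, Axl and Mer. It had 813 and 22101 counts in shControl and 2 and 9 in shNFIB. The log2 fold change was -8.65 at day 0 (-11.79 to -6.88) and -11.18 at day 7 (-12.33 to -10.28), and over both days it fell by 10.80 (SE 0.56, edgeR adjusted p = 9.65e-05). The control level was far higher at day 7 than at day 0, and both knockdown libraries lay far below both control libraries. In the shMLL1 cells the gene stood at 11.9 and 717 CPM, against 25.5 and 725 in shControl, on the scale of all 6 libraries. Tmem255b overlaps Gas6 on the opposite strand.

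Sfrp2 (chr3:83766321-83774316), a secreted modulator of Wnt signalling, had 682 and 133 counts in shControl and 2 and 0 in shNFIB, a log2 fold change of -8.40 at day 0 (-11.53 to -6.63) and at least 42.6-fold lower at day 7. G0s2 (chr1:193272161-193273217), an inhibitor of the fat-mobilising lipase ATGL, had 316 and 243 counts in shControl and 0 and 1 in shNFIB. It was at least 111-fold lower at day 0, and its log2 fold change at day 7 was -7.70 (-13.18 to -5.38). G0s2 lies on the opposite strand of Lamb3, which was itself a lower member with 262 and 89 counts in shControl and 133 and 37 in shNFIB. The difference in G0s2 was thus not matched in size by its overlapping neighbour.

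Mdfi, an inhibitor of myogenic basic helix-loop-helix factors, had 29 and 393 counts in shControl and 0 and 3 in shNFIB. Ildr2, an immunoglobulin-like receptor, had 86 and 68 counts in shControl and 0 in shNFIB, as did Slc22a2, an organic cation transporter, with 66 and 26 in shControl. Ppp1r9a (neurabin, which binds actin and protein phosphatase 1), Arap2 (a GTPase-activating protein for Arf) and Pnmal2 also had 0 counts in both knockdown libraries, with 23 to 48 counts in the control libraries. Taking the lower members together, 28 had at most 3 counts in both shNFIB libraries and 20 or more in both shControl libraries, and 26 of these are protein-coding. In 2 of the 28 both shMLL1 libraries were at 3 counts or fewer. Above that floor the shMLL1 counts varied. Sfrp2 had 15 and 29 in shMLL1 against 682 and 133 in shControl, and Hdx had 67 and 80 against 85 and 91. How many of the 28 were lower in shMLL1 than in shControl was not counted. Epas1, the hypoxia-inducible factor HIF-2α, is named here after its values were seen: it had 2604 and 4555 counts in shControl and 3 and 55 in shNFIB, so that its log2 fold change was -9.77 (-12.11 to -8.28) and -6.31 (-6.72 to -5.93).

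**Figure D2:**
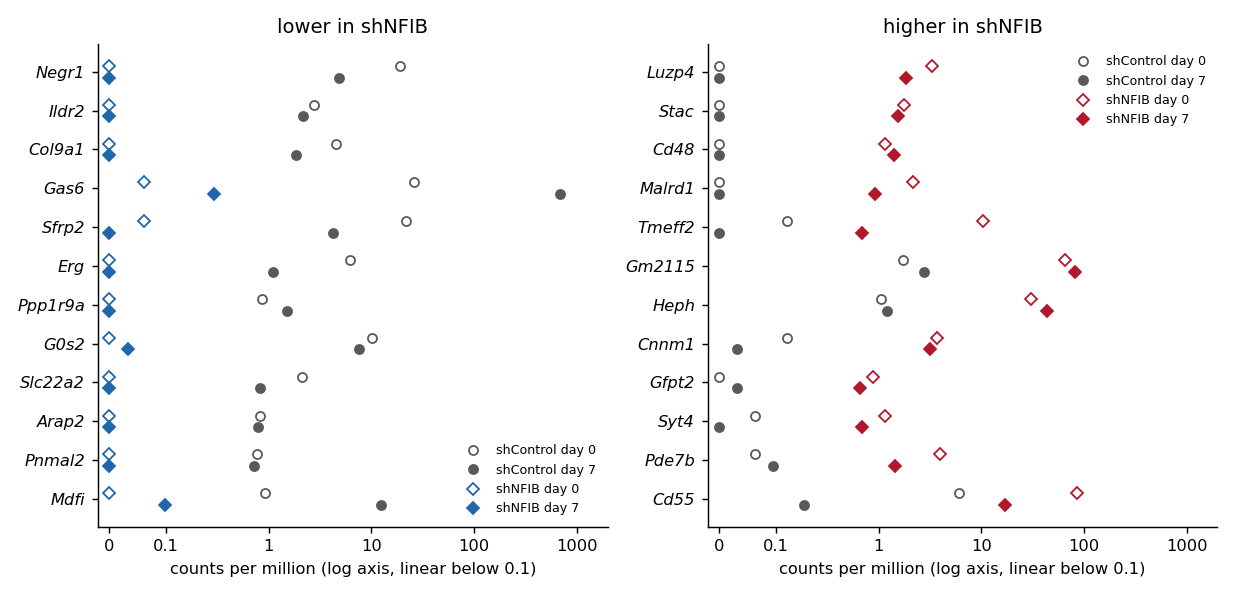
CPM (log axis, linear below 0.1) in each of the 4 libraries for the 12 protein-coding members per direction with the largest smaller fold change of the days. Open symbols are day 0 and filled symbols day 7; circles are shControl and diamonds shNFIB, with Negr1 at 0 in both shNFIB libraries and Luzp4 at 0 in both shControl libraries.

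The reverse pattern, a gene without reads in the control line, was found in fewer genes. Luzp4 (chrX:148857640-148924139) had 0 counts in both shControl libraries and 108 and 56 in shNFIB, at least 34.2-fold higher at day 0 and 19.4-fold at day 7. Stac, an adaptor protein of muscle calcium channels, had 0 counts in shControl and 58 and 47 in shNFIB. Cd48, a GPI-anchored ligand of the lymphocyte receptor CD244, had 0 in shControl and 38 and 43 in shNFIB. All 3 genes were also at 0 counts in both shMLL1 libraries. Among the higher members, 17 had at most 3 counts in both shControl libraries and 20 or more in both shNFIB libraries, of which 10 are protein-coding and 10 were at 3 counts or fewer in both shMLL1 libraries too. The one with most reads was the lincRNA Gm48395 (chr14:20215502-20221425), with 0 counts in shControl and shMLL1 and with 465 and 235 in shNFIB, at least 147-fold and 81.5-fold higher. Reads of that RNA were thus seen in 1 of the 3 lines of the series.

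Heph and Gm2115 were higher by a similar factor at both days. Heph (chrX:96455359-96574485), which encodes hephaestin, a copper-dependent ferroxidase that works in iron export, had 33 and 38 counts in shControl and 1005 and 1329 in shNFIB. Its log2 fold change was 4.85 at day 0 (4.36 to 5.40) and 5.18 at day 7 (4.72 to 5.69), 5.02 over both days (SE 0.29, edgeR adjusted p = 0.000379). Gm2115 (chr7:84528954-84583531) had 54 and 88 counts in shControl and 2136 and 2501 in shNFIB, and rose by 5.05 on the log2 scale (SE 0.26, edgeR adjusted p = 0.000343). For both genes the knockdown libraries lay far above the control libraries, and the days of a line lay close together.

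Cd55, the decay-accelerating factor that protects cells from complement, had 190 and 6 counts in shControl and 2794 and 518 in shNFIB, with log2 fold changes of 3.81 and 6.46. Tmeff2, a membrane protein with EGF-like and follistatin-like domains, had 4 and 0 counts in shControl and 339 and 21 in shNFIB. Pde7b, a phosphodiesterase for cyclic AMP, had 2 and 3 counts in shControl and 129 and 44 in shNFIB. The remaining genes of this group, each with at most 4 counts in any shControl library, were Cnnm1 with 122 and 97 counts in shNFIB, Malrd1 with 71 and 28, Syt4 with 38 and 21 (a synaptotagmin), and Gfpt2 with 29 and 20 (an enzyme of hexosamine synthesis).

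The members with the highest mean CPM are given next. Among the lower ones, Il1rn, the secreted antagonist of the interleukin-1 receptor, had 64578 and 64788 counts in shControl and 21044 and 21142 in shNFIB, log2 fold changes of -1.69 and -1.56 (edgeR adjusted p = 0.0365). Gpx4 (chr10:80047166-80056439), the glutathione peroxidase that reduces lipid peroxides, had 17790 and 62160 counts in shControl and 4350 and 14513 in shNFIB. It fell by 2.07 on the log2 scale (SE 0.28, edgeR adjusted p = 0.00982), and by 2.10 and 2.04 at the single days. Rnase4, a secreted ribonuclease whose locus overlaps Ang, and S100a10, the partner of annexin A2, had log2 fold changes between -1.45 and -1.13. Both passed the test. Rpl41 and Rps12, ribosomal protein genes on chromosome 10, had log2 fold changes of -1.28 and -1.35 and of -1.01 and -1.11. Rpl41 passed the test (edgeR adjusted p = 0.0496) and Rps12 did not (edgeR adjusted p = 0.0713).

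Among the abundant higher genes, Glul, the glutamine synthetase, had 1580 and 12151 counts in shControl and 3362 and 46667 in shNFIB, log2 fold changes of 1.02 and 2.00. Ctla2a, a cysteine protease inhibitor, had 12 and 39173 counts in shControl and 273 and 126148 in shNFIB, log2 fold changes of 4.42 and 1.75. Its near-identical neighbour Ctla2b was also a member, and the split of reads between the pair is uncertain. Both lines thus had far more Ctla2a counts at day 7 than at day 0, with shNFIB above shControl at both. The matrix genes Fbn1, Vcan and Svep1 completed this group, with log2 fold changes between 1.01 and 1.40 that passed the test.

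Other genes with the smallest p are described next. The test sets the size of the difference against a spread. That spread joins a gene's own variation between the days with variation shared from other genes. A small p thus does not show that the days were alike. Mmp3, described below, is in this group although its fold changes at the days lay far apart. Wfdc18, a small secreted WAP-domain protein, had 1528 and 2122 counts in shControl and 43 and 41 in shNFIB (log2 fold changes -5.22 and -5.63). Faah, the hydrolase of fatty acid amides such as anandamide, had 976 and 556 against 57 and 34 (-4.17 and -3.97). Gpm6b, a proteolipid of the myelin protein family, had 813 and 3594 against 24 and 132 (-5.15 and -4.71). In all 3 genes the knockdown libraries held a small fraction of the control counts at both days. Aspg (an asparaginase), Wscd2, Col27a1 and Eln were also in this group, as was the transcribed unprocessed pseudogene Gm5886, whose reads may belong to a related gene. The higher genes with the smallest p, beside those above, included Mmp3, Arhgap20, Maob, Alcam and Ampd3. Maob, a monoamine oxidase, had 76 and 252 counts in shControl and 718 and 1896 in shNFIB (3.17 and 2.97). Alcam, an adhesion molecule of mesenchymal and immune cells, had 1438 and 335 against 8585 and 2049 (2.51 and 2.67).

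The lists described next were read against the shares of members among all genes tested, 2.96% lower and 2.17% higher, and against a median of the fitted log2 fold change over all genes of 0.0032. In no list are the counts a test of the list.

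Members of the osteoblast, adipocyte, chondrocyte and smooth muscle lists are described next. Of 14 osteoblast genes tested, 4 were lower members and all 4 were called: Dlx5, Enpp1, Tnfrsf11b and Pth1r. None was a higher member, and the list median of the fitted log2 fold change was -0.89, with a median of -0.14 at day 0 alone. Dlx5 (chr6:6877805-6882085), a homeobox factor of bone formation, had 408 and 1601 counts in shControl and 140 and 109 in shNFIB, log2 fold changes of -1.61 and -3.82 (edgeR adjusted p = 0.0291). Its count was higher at day 7 than at day 0 in shControl and lower in shNFIB. Tnfrsf11b (osteoprotegerin, the decoy receptor that restrains osteoclast formation) went the other way between days, with 11315 and 1802 counts in shControl and 2703 and 701 in shNFIB (-2.14 and -1.30). Enpp1, which makes the mineralization inhibitor pyrophosphate, and Pth1r, the receptor of parathyroid hormone, had fitted log2 fold changes of -1.54 and -1.52. Enpp1 and Tnfrsf11b are known to restrain mineral or osteoclasts rather than to build bone. Runx2 and Spp1, named after their values were seen, were not members: Runx2, the master factor of osteoblasts, had log2 fold changes of -0.15 and -1.93, and Spp1 (osteopontin) of -0.09 and -2.60.

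Of 22 adipocyte genes tested, Cebpa, Klf15 and Dgat2 were lower members and Cd36 a higher one, and the fit called 8 lower and 2 higher. Cebpa (chr7:35119293-35121928), a master transcription factor of fat cells, had 608 and 313 counts in shControl and 232 and 119 in shNFIB. Its log2 fold change was -1.46 at day 0 and -1.34 at day 7 (edgeR adjusted p = 0.0309). Dgat2, which adds the last acyl chain of triglycerides, had log2 fold changes of -1.20 and -1.26, and Klf15, a Krüppel-like factor, of -1.13 and -1.53 without passing the test (edgeR adjusted p = 0.0615). The other called genes of this list were not members, and 5 of them are named here after their values were seen. The lipid droplet and secreted fat cell genes Plin1, Cfd, Cidec and Retn had 0 counts in both lines at day 0, and in shControl at day 7 they had 472, 2129, 681 and 117 counts, against 9, 22, 5 and 0 in shNFIB. Pparg was called higher but fell short of 2-fold at day 0, with log2 fold changes of 0.85 and 1.02 (edgeR adjusted p = 0.0488). Cd36, a fatty acid receptor, had 0 and 89 counts in shControl and 8 and 349 in shNFIB.

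Among 10 chondrocyte genes, Col9a1, Comp and Matn3 were lower members and none was higher, with a list median of -1.40. Comp, a cartilage matrix protein, had 30 and 767 counts in shControl and 6 and 150 in shNFIB, log2 fold changes of -2.37 and -2.30. Of 13 contractile smooth muscle genes, Tagln, Myl9 and Des were lower and Synpo2 was higher. Myl9, a regulatory myosin light chain, had 670 and 467 counts in shControl and 317 and 178 in shNFIB (edgeR adjusted p = 0.0374), while Tagln and Des did not pass the test. Tnnt1 was the only member among 6 skeletal muscle genes. The study names 12 genes of its larger set of direct NFIB and MLL1 targets. Of these 12, Dlx5, Cebpa and Plpp3 were members, all lower, while the list median of the fitted log2 fold change was 0.03. The study called its targets from ChIP-seq of the same lines, in part by a loss of signal in the knockdown lines. The list is therefore no independent evidence of its direction. Plpp3, a lipid phosphate phosphatase, had 2209 and 11285 counts in shControl and 531 and 1397 in shNFIB, and fell by 2.55 on the log2 scale (SE 0.27, edgeR adjusted p = 0.00356).

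**Figure D3:**
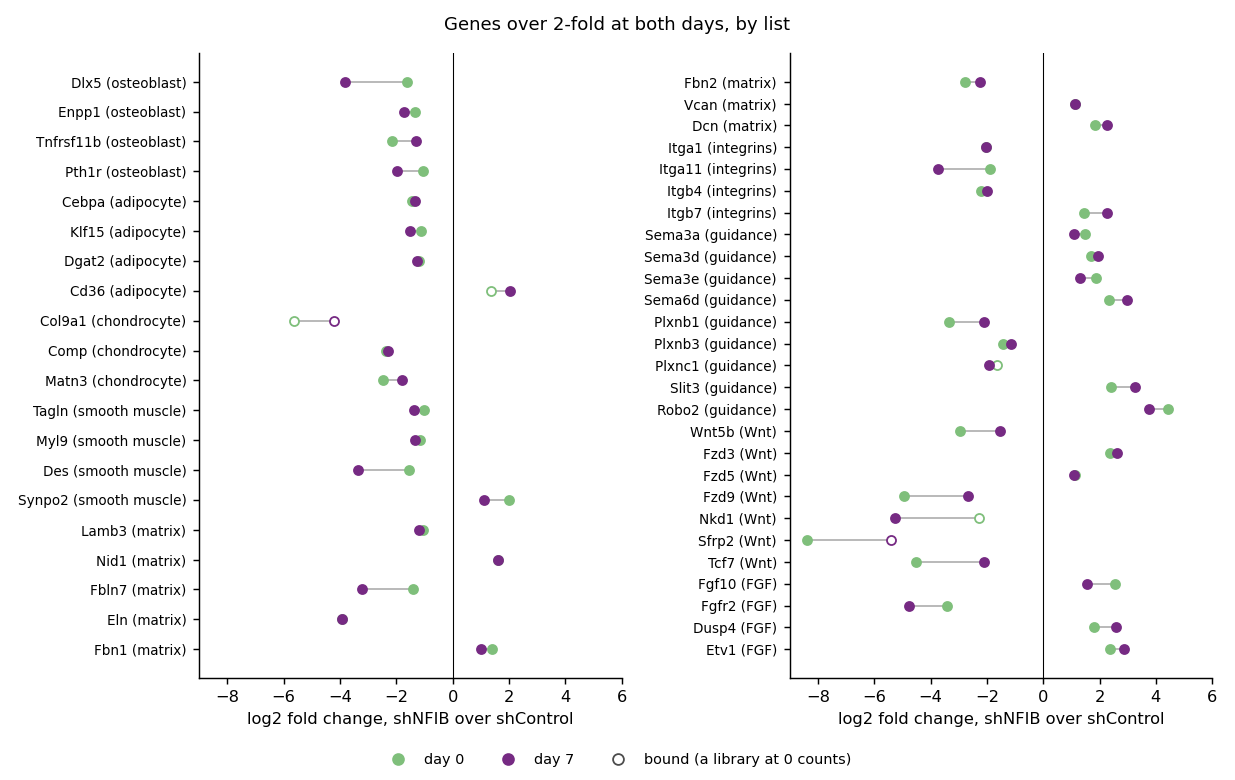
Log2 fold change of shNFIB over shControl at day 0 (green) and day 7 (purple) for members of 9 of the lists, 1 library per line and day; open circles are bounds where a library had 0 counts, set to 3 counts. The osteoblast, chondrocyte and most adipocyte and smooth muscle members lie left of 0, whereas matrix and guidance members lie on both sides.

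Matrix genes moved in both directions. Among 36 basement membrane and matrix glycoproteins, Lamb3, Fbln7, Eln and Fbn2 were lower members and 5 were higher, Nid1, Fbn1, Vcan and Dcn among them, with a list median of 0.16. The fit called 4 lower and 7 higher. Elastin and the fibrillins, which together form elastic fibres, were split. Eln (chr5:134702593-134747323) had 351 and 631 counts in shControl and 24 and 40 in shNFIB, log2 fold changes of -3.94 and -3.92 (SE of the fit 0.31, edgeR adjusted p = 0.00139). Fbn2 fell by 2.53 on the log2 scale, from 3841 and 722 counts to 584 and 145. Fbn1 rose by 1.21, from 8296 and 1767 counts to 23053 and 3411.

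Of the other higher matrix genes, Nid1 (nidogen, which links laminin and collagen IV) had 2097 and 1995 counts in shControl and 6767 and 5784 in shNFIB, log2 fold changes of 1.62 and 1.59. Dcn (decorin, a small proteoglycan that binds collagen fibrils) had 1320 and 1702 against 5001 and 7856 (1.85 and 2.26). Both passed the test. Of 24 collagen genes, Col15a1 and Col27a1 were lower members and were called, and Col14a1 was higher without passing the test. Col27a1, a fibrillar collagen of cartilage, had 351 and 1519 counts in shControl and 34 and 96 in shNFIB. Among 23 matrix proteases and inhibitors, Adamts15 was lower, with 11 and 633 counts in shControl and 1 and 7 in shNFIB, and Mmp3, Mmp16 and Adamts2 were higher. Mmp3, the secreted protease stromelysin-1, had 22 and 97 counts in shControl and 53 and 4722 in shNFIB. It was just over 2-fold higher at day 0 (log2 1.19, interval 0.45 to 1.98), and its log2 fold change at day 7 was 5.66 (5.37 to 5.97).

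Of 17 integrins, Itga1, Itga11 and Itgb4 were lower members and Itgb7 was higher, and all 4 were called. Itga1 and Itga11, the α chains of collagen-binding integrins, had log2 fold changes of -2.04 at both days and of -1.88 and -3.72. For Itga1 the counts were 1387 and 521 in shControl and 354 and 122 in shNFIB. Among 16 cadherins and protocadherins the members were Cdh18, Pcdh7 and Pcdh9, all higher, with a list median of 0.52. Pcdh7 had 1748 and 284 counts in shControl and 3907 and 1047 in shNFIB. Cdh18 did not pass the test (edgeR adjusted p = 0.0556).

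Of 33 guidance genes tested, 6 were higher members, the largest number in any of these lists, and 3 were lower. The ligands Sema3a, Sema3d, Sema3e, Sema6d and Slit3 were higher, as was the Slit receptor Robo2, and the semaphorin receptors Plxnb1, Plxnb3 and Plxnc1 were lower. Sema3d, Plxnb3 and Plxnc1 did not pass the test. Slit3 had 89 and 65 counts in shControl and 502 and 600 in shNFIB, log2 fold changes of 2.42 and 3.26 (edgeR adjusted p = 0.00416). Robo2 had 5 and 39 counts in shControl and 116 and 503 in shNFIB (4.43 and 3.74, edgeR adjusted p = 0.00294). Plxnb1, the receptor of semaphorin 4D, had 673 and 1718 against 70 and 388 (-3.33 and -2.09, edgeR adjusted p = 0.00707). The list median was 0.31. Of 15 ephrins and Eph receptors, Ephb6 was the only member, with log2 fold changes of 1.02 and 1.25.

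In the Wnt pathway, 5 of 35 genes tested were lower members and 2 were higher, and all 7 were called. The lower ones were the ligand Wnt5b, the receptor Fzd9, the secreted modulator Sfrp2, the inhibitor Nkd1 and the nuclear factor Tcf7. Thus activators and inhibitors of the pathway were both among them. Fzd9 had 383 and 153 counts in shControl and 13 and 23 in shNFIB (-4.94 and -2.67), and Tcf7 had 267 and 41 against 12 and 9 (-4.53 and -2.11). The receptor Fzd3 was higher, with 25 and 22 counts in shControl and 138 and 129 in shNFIB (2.39 and 2.60), and Fzd5 had log2 fold changes of 1.11 and 1.10. The list median was -0.07.

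Of 21 FGF pathway genes, the receptor Fgfr2 was lower, and the ligand Fgf10, the phosphatase Dusp4 and the ETS factor Etv1 were higher. All 4 were called. Fgfr2 had 431 and 1084 counts in shControl and 42 and 38 in shNFIB, log2 fold changes of -3.43 and -4.77 (edgeR adjusted p = 0.0026). Fgf10 had 438 and 581 counts in shControl and 2720 and 1653 in shNFIB (2.56 and 1.57). Etv1 and Dusp4, both transcribed in response to ERK signalling, had fitted log2 fold changes of 2.62 and 2.19. In GENCODE M21 one transcript stretches the Fgfr2 locus over many neighbouring genes, whose reads may be hard to assign. Among 38 genes of the BMP and TGF-β pathways, Fst and Ltbp4 were lower, and of 2 higher members Inhba is described here. Fst and Inhba, which encode the activin antagonist follistatin and a subunit of activin, lay on opposite sides: follistatin had 1255 and 3087 counts in shControl and 624 and 754 in shNFIB, and Inhba had 546 and 76 against 1269 and 165. Ltbp4 did not pass the test.

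Igf1r and Igfbp3 were lower among 19 genes of the IGF axis. Igf1r, the receptor of IGF-1, had 3459 and 1876 counts in shControl and 1638 and 884 in shNFIB, and Igfbp3, a secreted binding protein, had 78 and 235 against 18 and 2. Jag2 was the only member of 14 Notch genes and did not pass the test. No gene of 10 Hedgehog genes was a member. Of 9 Hox genes, Hoxa2 alone was a member, with log2 fold changes of -1.20 and -1.25 (edgeR adjusted p = 0.0316). Of 53 mesenchymal and patterning transcription factors, 2 were members, both lower. Pax3 (chr1:78101267-78197134), a factor of neural crest and muscle precursors, had 223 and 94 counts in shControl and 11 and 1 in shNFIB. Meox2, a homeobox factor of the somite, had 74 and 85 against 8 and 0.

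Of 27 chemokine and cytokine genes, Ccl20, Il1rn, Il18, Il34, Ccrl2 and Ackr4 were lower and Il1rl1 was higher, with a list median of 0.017. Ccrl2, an atypical chemokine receptor, had 46 and 402 counts in shControl and 2 and 16 in shNFIB. Il1rl1, the receptor of interleukin-33, had 275 and 49 counts in shControl and 1715 and 137 in shNFIB. Il34 and Ackr4 did not pass the test. Among 13 complement genes, C4b and Serping1 were lower and 2 were higher, the regulator Cd55 among them. C4b, a component of the classical pathway, had 339 and 10039 counts in shControl and 92 and 1745 in shNFIB (-1.95 and -2.47, edgeR adjusted p = 0.00366). Serping1, the C1 inhibitor, had 277 and 508 against 115 and 204. Of 15 MHC class I and antigen processing genes, Psmb8 was the only member. None of 33 interferon response genes was a member: all 33 were below 0 at day 0 and 32 were above 0 at day 7.

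Of 15 imprinted genes, H19, Plagl1, Dlk1 and Peg10 were lower and Ndn and Dcn were higher. H19, a long non-coding RNA, had 42 and 15 counts in shControl and 0 in both shNFIB libraries, at least 14.7-fold and 4.80-fold lower. Ndn (necdin) had 643 and 302 counts in shControl and 2022 and 1176 in shNFIB (1.58 and 2.02, edgeR adjusted p = 0.00765). Plagl1 and Dlk1 did not pass the test. The retinoid genes held 1 member in each direction among 12: Cyp26b1, which breaks down retinoic acid, was lower, with 581 and 187 counts in shControl against 95 and 87, and Dhrs9, a retinol dehydrogenase, was higher, with 182 and 33 against 650 and 241. Tm7sf2 was the only member among 23 sterol synthesis genes and was lower. No member was found among 30 S phase and 30 G2/M genes, 12 CDK inhibitors and D cyclins, 19 glucocorticoid response genes or 22 NRF2 antioxidant genes. In these lists the fit called Cdkn1a and Dusp1 higher and Zbtb16 lower. When libraries at 0 counts were set to their bound, no list median moved by more than 0.42 on the log2 scale at a single day.

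**Figure D4:**
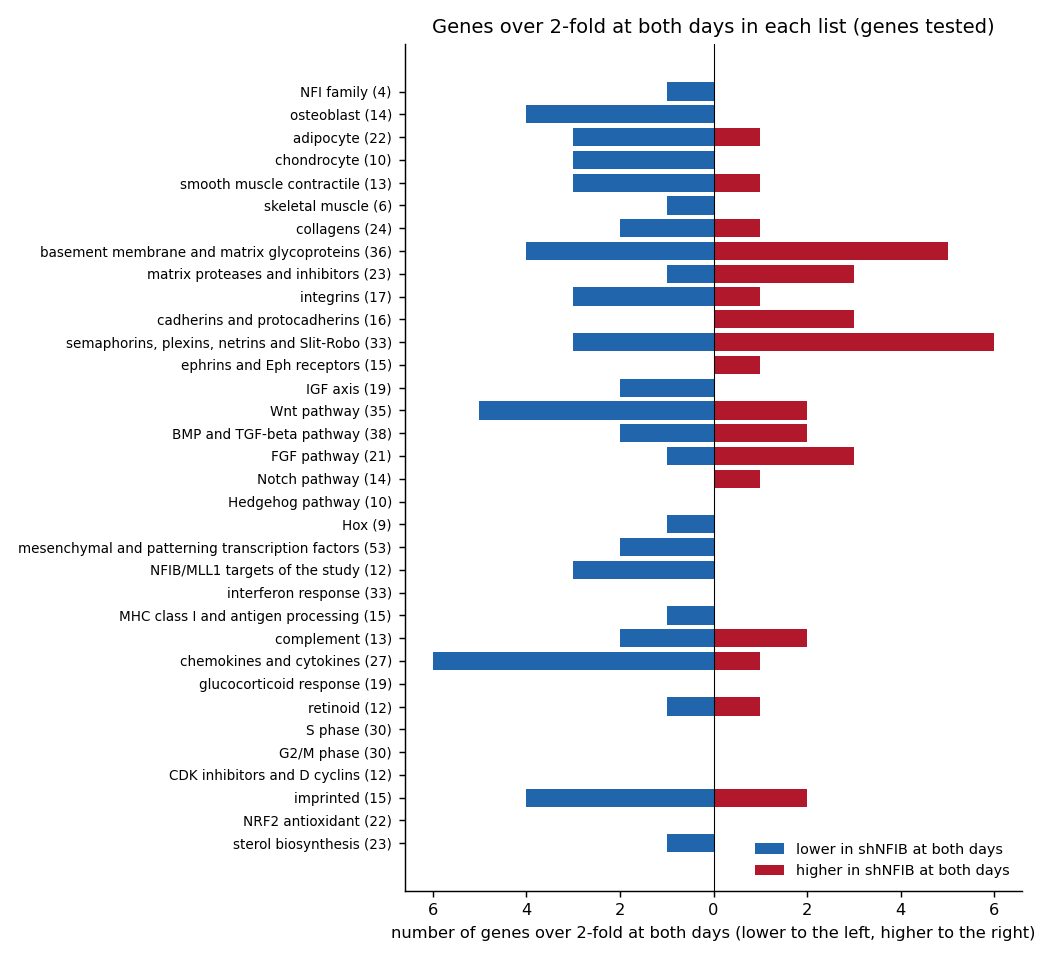
Number of members lower (blue, to the left) and higher (red, to the right) in shNFIB at both days in each gene list, with the number of genes tested in parentheses. Chemokines and cytokines hold the most lower members (6 of 27) and guidance genes the most higher members (6 of 33), while the cell cycle and interferon lists hold none.

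Many members also differed between the days. In shControl cells 247 members were more than 2-fold higher at day 7 than at day 0, 167 of them from the lower group and 80 from the higher group. Another 199 were more than 2-fold lower at day 7, 82 from the lower group and 117 from the higher group. Over all genes tested these shares were 19.1% and 17.0%. In 245 members neither line differed by more than 2-fold between days. Fold changes between the days use the same shControl libraries as the knockdown comparison, so that the 2 are not independent.

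The numbers of lower and higher members differed between chromosomes. Chromosome 1 held 50 higher and 26 lower members among 915 genes tested, and chromosome 10 held 12 higher and 45 lower among 757. Chromosome X held 27 higher and 11 lower among 490, the largest share of higher members (5.51%, against 5.46% on chromosome 1). For chromosomes 1 and 10 the same difference was seen over all protein-coding genes with a mean of 200 or more counts. On chromosome 1 their median log2 fold change was 0.33 at day 0 and 0.50 at day 7 over 587 genes, with 78.9% and 80.7% of them above 0. On chromosome 10 it was -0.31 and -0.20 over 500 genes. On chromosome X it was -0.0046 and 0.19 over 328 genes. The medians of the other chromosomes ranged from -0.11 to 0.11 at day 0 and from -0.0057 to 0.34 at day 7. In windows of 20 Mb that held at least 20 such genes, the medians of all 9 windows of chromosome 1 were above 0 at both days and those of all 7 windows of chromosome 10 below 0. For the shMLL1 line the medians were -0.03 and 0.12 on chromosome 1 and -0.22 and -0.24 on chromosome 10. Medians of the other chromosomes in that line ranged from -0.28 to 0.013 at day 0 and from -0.25 to 0.043 at day 7. The values of chromosome 10 thus lay within the range of the others in shMLL1. Copy number was not measured, and its part in these values was not tested. With each gene taken relative to the median of its chromosome, 488 lower and 272 higher members were found, 436 and 264 of them shared with the lists above. Of the genes named here, the higher genes of chromosome 1 include Cd55, Glul, Il1rl1, Fzd5, Ptgs2, Tmeff2, Cd48 and Tnfsf18. The lower genes of chromosome 10 include Gpx4, Rpl41, Rps12, Enpp1 and Sobp. Named members of the other direction also lie there, such as Col9a1 and Ildr2 on chromosome 1 and Pde7b on chromosome 10. Fzd5, with log2 fold changes of 1.11 and 1.10, exceeded 2-fold by less than the medians of chromosome 1.

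**Figure D5:**
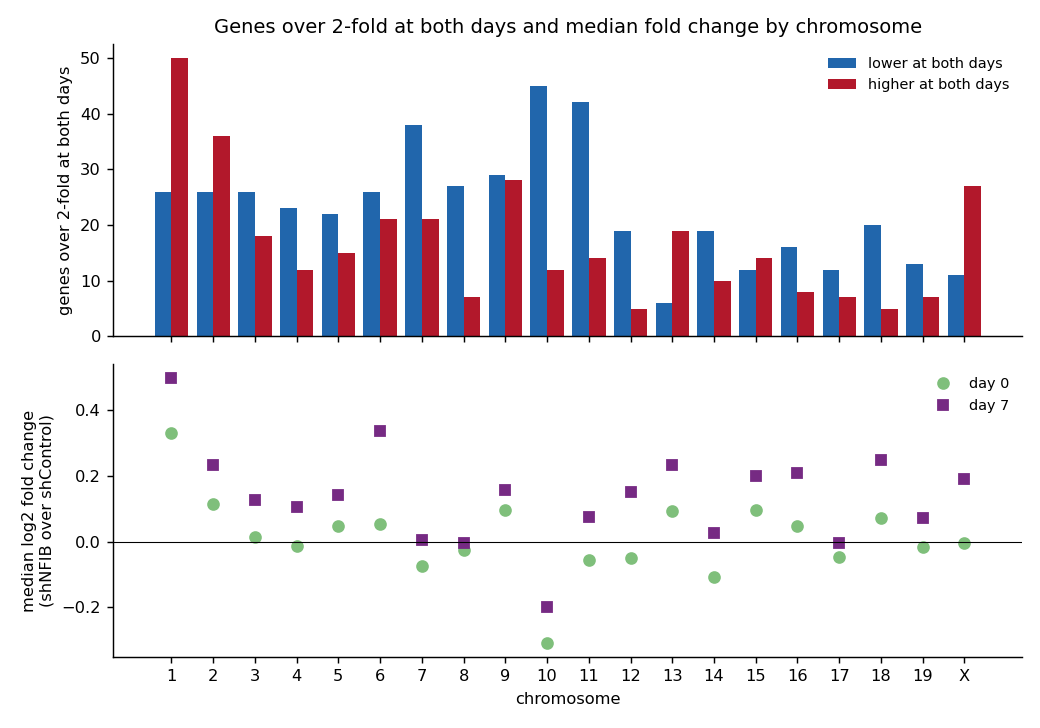
Number of members lower (blue) and higher (red) in shNFIB on each chromosome (top), and the median log2 fold change of protein-coding genes with a mean of at least 200 counts at day 0 (circles) and day 7 (squares; bottom). Chromosome 1 has 50 higher members and medians of 0.33 and 0.50, and chromosome 10 has 45 lower members and medians of -0.31 and -0.20. Chromosome X has 27 higher members and medians of -0.0046 and 0.19.

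The lower members had shorter transcripts than the higher ones, with medians of 1429 and 1990 bases for the median transcript of a gene, compared with 1351 over all genes tested. Among protein-coding genes of 200 or more counts, the median log2 fold change went from -0.10 at day 0 and -0.013 at day 7 in the tenth with the shortest transcripts to 0.16 and 0.36 in the tenth with the longest. The 76 ribosomal protein genes, a list chosen after values were seen, had a median of -0.55 at day 0 and -0.24 at day 7, and 74 and 56 of them were below 0. Rpl41 and Rps12 were the only members among them. The part of transcript length or RNA quality in the results was not tested beyond a centring by length, under which 483 lower and 281 higher members were found.

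Some members lay next to each other in the genome, and these genes were named after their values were seen. Of 93 pairs of adjacent tested genes that were both members, 79 had the same direction. The share over all adjacent tested genes was not computed, so these counts are a description only. Some neighbours overlap, such as Gm15674 and Gm15675, and their reads may not be told apart. There were 8 runs of 3 or more members in 1 direction, the longest of 4 genes. That run (chr3:107888850-107943749) holds 4933431E20Rik and the glutathione transferase genes Gstm5, Gstm7 and Gstm6, all lower. Gstm5 had 1173 and 1557 counts in shControl and 589 and 704 in shNFIB, Gstm7 had 45 and 109 against 1 and 0, and Gstm6 had 16 and 33 against 4 and 8. The Gstm genes are related in sequence, so that reads may be split between them, and 4933431E20Rik overlaps Gstm5. Other runs were Kcne4, Scg2 and Ap1s3 on chromosome 1 and Fxyd1, Lgi4 and Fxyd3 on chromosome 7, all lower, and Ly6c1, Ly6c2 and BC025446 on chromosome 15, all higher.

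Promoter sequences of RefSeq (GRCm38.p6, 250 bases before to 50 after the start) were matched by symbol and chromosome to 302 lower and 220 higher members and to 10566 of the genes tested. The full NFI palindrome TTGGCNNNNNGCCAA, which reads the same on both strands, was present in 1 lower member, in 0 higher members and in 0.0473% of all genes matched. The shorter TGGCNNNNNGCCA, which the full palindrome contains, was in 7 lower members (2.32%), 1 higher member (0.455%) and 1.07% of all. A half-site, TTGGC or GCCAA, was in 58.6% of the lower genes, 110 of the 220 higher genes and 55.4% of all genes, and lay within every full palindrome. The 8 members with the shorter palindrome are shown because their promoter window holds both inner arms at the NFI spacing. Only Gstm7 holds the full palindrome. Both arms are in capitals. Each stretch holds 10 bases on either side of the shorter palindrome, 5′ to 3′ on the strand of the gene.
Gstm7, lower, chr3:107931851-107931883, minus strand: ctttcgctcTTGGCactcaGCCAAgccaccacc
Aldh3b1, lower, chr19:3929808-3929840, minus strand: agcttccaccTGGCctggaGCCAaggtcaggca
Camp, lower, chr9:109849531-109849563, minus strand: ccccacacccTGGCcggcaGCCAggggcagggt
Gm15408, lower, chr5:149006844-149006876, plus strand: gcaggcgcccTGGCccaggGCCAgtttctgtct
Itga11, lower, chr9:62677746-62677778, plus strand: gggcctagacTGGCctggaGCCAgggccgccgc
Mpzl1, lower, chr1:165634520-165634552, minus strand: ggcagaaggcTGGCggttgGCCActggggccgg
Pik3r3, lower, chr4:116221312-116221344, plus strand: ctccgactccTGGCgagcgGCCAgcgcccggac
Tnfsf18, higher, chr1:161494531-161494563, plus strand: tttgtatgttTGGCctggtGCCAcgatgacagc

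The one full palindrome, in Gstm7, lay upstream of the start of transcription. The whole promoter window of Gstm7 (chr3:107931768-107932067, minus strand) is shown with both arms in capitals, as the only member that holds them.
Gstm7: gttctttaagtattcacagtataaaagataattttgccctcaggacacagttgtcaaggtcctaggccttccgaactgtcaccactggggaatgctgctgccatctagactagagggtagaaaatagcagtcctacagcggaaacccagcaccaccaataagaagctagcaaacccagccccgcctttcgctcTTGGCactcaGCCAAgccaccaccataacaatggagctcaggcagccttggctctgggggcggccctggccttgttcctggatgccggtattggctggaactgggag
A match of letters is a description of this window and says nothing of binding, which was not measured in these libraries. Of the genes shown, Aldh3b1 had 321 and 627 counts in shControl and 99 and 102 in shNFIB, Pik3r3 (a regulatory subunit of PI3 kinase) had 1667 and 973 against 603 and 276, and Mpzl1 had 12125 and 7779 against 3585 and 3555. These 3 and Itga11 and Gstm7 passed the test, whereas Camp, Gm15408 and Tnfsf18 did not.

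At the edge of the 2-fold rule, genes just inside and just outside had nearly the same values. Just inside on the lower side were Uqcr11, Ivd and Sobp, whose smaller difference was within 0.01 of 2-fold on the log2 scale. Just outside were Fam241b, 1810062G17Rik and A930033H14Rik, likewise within 0.01 of it. On the higher side, Polr3g, Nsg1 and Fbn1 lay just inside, and Rapgef1, Klhl29 and Magi1 just outside, again by 0.01 or less. The latter 3 passed the edgeR test over both days, while Polr3g did not, so that membership and a call do not coincide near the edge.

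Since each line is 1 hairpin line with 1 library a day, the calls of the fit lean on single libraries. In the fit over all 6 libraries of the series, 60 genes were called lower and 26 higher, of which 58 and 25 were members. When 1 of the 4 libraries was left out of that fit, between 16 and 83 genes were called lower and between 2 and 69 higher.

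Values of the shMLL1 line, which shares the shControl libraries, are set beside the others for 7 members, in CPM on the scale of all 6 libraries. The 7 were not chosen by a rule. How many of the 796 members differed in the same direction in shMLL1 was not counted, so the 7 are examples only. Col9a1 stood at 4.45 and 1.90 in shControl and at 0.0663 and 0 in shMLL1. Sfrp2 stood at 21.4 and 4.36 against 0.497 and 1.19, and Il1rn at 2022 and 2125 against 174 and 667. In these 3 genes both shMLL1 libraries lay below the shControl library of their day, as the shNFIB libraries did. Fgfr2 stood at 13.5 and 35.6 against 0.596 and 13.2, and Dlx5 at 12.8 and 52.5 against 4.04 and 15.9. Heph and Ndn, higher in shNFIB, were lower in shMLL1: Heph stood at 1.03 and 1.25 in shControl and at 0.630 and 0.205 in shMLL1, and Ndn at 20.1 and 9.91 against 1.79 and 1.72. With 1 shMLL1 library a day these values carry no test here.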

How the data were processed

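RNA of 6 C3H10T1/2 libraries had been sequenced by the authors as paired reads. Per their methods and processing notes, reads were trimmed with Trimmomatic 0.39, aligned to mm10 with HISAT2 2.2.1, filtered on mapping quality and cleared of duplicates with SAMtools 1.12, and counted per gene with HTSeq 0.11.1. The deposited table holds these raw counts. Duplicate removal can lower the counts of abundant and short genes. The annotation release and strand setting are not given in the sources used here. Symbols, positions and gene types came from GENCODE M21, which lists 55141 of the 55401 genes.

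Genes with 20 or more counts in at least 1 of the 4 shControl and shNFIB libraries were tested. For each day, log2 fold changes were computed from CPM scaled by TMM, with a small prior count, and with an exact Clopper-Pearson 95% interval on the share of counts that covers counting error only. PCR copies are not independent molecules, so these intervals are too narrow where copies remain. Members were genes over 2-fold in 1 direction at both days with intervals that excluded equality. Over both days, edgeR 4.0.16 (quasi-likelihood test, terms for day and line, R 4.3.3, Benjamini-Hochberg adjustment) was fitted with 1 residual degree of freedom. The spread of a gene was drawn towards that of other genes, with a median of 6.84 prior degrees of freedom. The SE is the absolute fold change divided by the square root of F. A call is an adjusted p under 0.05. A library at 0 was given a floor of 3 counts for bounds. The steps were tested on simulated data. The simulated knockdown effects were equal at both days, and the simulated spread was smaller than that of the fit. These runs therefore do not cover effects that vary between the days. DESeq2 1.42.0 was an alternative.

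Named genes were Nfib, Kmt2a and the NFI family, the 12 protein-coding members a direction with the largest smaller fold change, the 6 with the highest mean CPM, the 10 genes with the smallest p, the members of the gene lists and 3 genes on either side of the fold threshold. The members and lists were chosen with earlier results of these data known. A few genes of these groups are not reported here.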

Additional observations from a re-analysis of the deposited data

Results flagged for a closer look

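Genes over 2-fold in opposite directions at the days stood apart from the members. There were 48 genes lower in shNFIB at day 0 and higher at day 7, and 30 genes higher at day 0 and lower at day 7. In these the 1 library pair of each day moved the opposite way, and the difference between the days was not tested. Interferon response genes made up 18 of them. Ifit1, an interferon-induced RNA-binding protein, had 5450 counts in shControl and 520 in shNFIB on day 0, and 2334 and 9755 on day 7. Oas2, which makes the activator of RNase L, had 452 and 34 on day 0, and 2026 and 6521 on day 7. Both genes thus changed sides between the days. Penk, the precursor of enkephalins, had 404 and 67 on day 0 and 44 and 673 on day 7.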

How the results depend on the processing

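At 1.5-fold there were 879 lower and 773 higher members, and at 4-fold 169 and 92. The other 10 alternatives to the members, 3 of which (centring by chromosome, centring by length, without chromosomes 1 and 10) were added after seeing the data, gave 373 to 580 lower and 271 to 392 higher members. Leaving out a library was not possible for the members, since each day has 1 library a line. The edgeR fit called 83 genes lower and 46 higher when all genes with at least 1 count were tested, and 60 and 26 with all 6 libraries. DESeq2 called 403 and 508. Without the day term, that is without the replicate block by day, edgeR called 0 lower and 0 higher, with 526 genes at an unadjusted p under 0.05, against 3097 with it. The labels give no other replicate numbers. In the fit of all libraries, leaving out 1 of the 4 gave 16 to 83 lower and 2 to 69 higher genes: 16 and 4 without shControl day 0, 22 and 2 without shControl day 7, 83 and 69 without shNFIB day 0, and 40 and 25 without shNFIB day 7. The lone library of a line is there assumed to vary like the others. The cause was not tested. Of 124 named genes called, between 94 and 116 were no longer called in these fits. The log2 fold change of Cd36, 2.17 in the fit of 4 libraries, ranged from -0.96 without shNFIB day 7 to 8.38 without shControl day 7.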

Other observations

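Secreted growth factors were found among both the higher and the lower members, and those given here were chosen after their values were seen. Angpt1, the ligand of the endothelial receptor Tie2, had 589 and 1078 counts in shControl at days 0 and 7, and 2699 and 3704 in shNFIB. It rose by 1.98 on the log2 scale (SE 0.21, edgeR adjusted p = 0.00368). Each shNFIB library lay above both shControl libraries. Pdgfc, a ligand of the PDGF receptors, had 498 and 168 against 1570 and 659, and Vegfc, the lymphatic growth factor, had 192 and 248 against 618 and 664. Hgf, hepatocyte growth factor, had 1528 and 93 against 4469 and 866. These 4 genes were higher members and passed the edgeR test. Pdgfd, another ligand of the PDGF receptors, was lower, with 1411 and 722 counts in shControl against 514 and 302, as was Nrg2, a neuregulin, with 54 and 101 against 2 and 5. Both passed the edgeR test as well.

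Both cyclooxygenases, the enzymes that start prostaglandin synthesis, were higher. Ptgs1 had 3381 and 2309 counts in shControl and 13627 and 7767 in shNFIB, log2 fold changes of 1.94 and 1.81. Ptgs2 had 1164 and 206 against 3446 and 3933, with log2 fold changes of 1.49 and 4.31. Both passed the edgeR test, with adjusted p = 0.00509 for Ptgs1 and 0.0446 for Ptgs2. Prg4, the joint lubricant lubricin, had 29 and 335 against 1727 and 2520. Hmga2, a chromatin protein of embryonic cells, had 1527 and 1267 against 5491 and 6851. Steap4, a metal reductase, was lower, with 819 and 293 counts in shControl and 46 and 41 in shNFIB, as was Trf (transferrin), with 21 and 109 against 1 and 0.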
